A study of Mus musculus with 16 samples.

Results

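Solute carriers are the membrane proteins that move small molecules (amino acids, sugars, nucleosides, lactate, bile acids, ions and metals) across the plasma membrane and the membranes of mitochondria, lysosomes and the Golgi apparatus. They are named by family number, with Slc for most families and Slco for the organic anion transporting polypeptides. The members described here were the rows of the deposited tables in which a gene name began with Slc or Slco followed by a digit, 126 of 6258 named rows in 3 tables. Of these, 109 were in the comparison of quiescent cells, 3 in that of GFP-high and 14 in that of GFP-intermediate activated cells, and they held 116 different gene names, where the GENCODE M21 annotation has 394 solute carrier names. All 126 rows named 1 gene only.

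RNA was sequenced from 16 samples of mouse hepatic stellate cells (HSCs), the vitamin A-storing perivascular cells of the liver sinusoid that become matrix-producing myofibroblasts after injury. Quiescent HSCs (qHSCs) came from 3 uninjured WT1CreERT2;Ai14 animals on a C57/Bl6 background, in which cells expressing WT1, a transcription factor of the mesothelium, had been labelled permanently at E10.5. Each animal gave a label-positive (RFP-positive) and a label-negative fraction, 3 samples of each. They are male by the sample labels, but female by the methods of the study. Activated HSCs (aHSCs) came from 6 male C57/Bl6 animals injured for 8 weeks with carbon tetrachloride. Both genotypes carried the constitutive PDGFRbCre, the Ai14 reporter of Cre activity and GFP in place of 1 WT1 allele. The remaining WT1 allele was intact in controls (PDGFRbCre;WT1_+_GFP;Ai14) and floxed in WT1-deleted animals (PDGFRbCre;WT1_fl_GFP;Ai14), so no aHSC group had 2 intact copies, and PDGFRb is expressed by pericytes and other mesenchymal cells as well as by HSCs. RFP-positive aHSCs were sorted into GFP-high cells, with 3 control and 3 WT1-deleted samples, and GFP-intermediate cells, which the labels call GFP low, with 2 and 2. In the GFP-intermediate controls 1 sample was pooled from 2 animals. Values for WT1 itself were not analysed here.

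The deposited tables hold 1 FPKM (sequenced fragments divided by transcript length and by the size of the library) for each group and gene. They cover only genes taken to have passed the authors' adjusted p-value threshold of 0.05. FPKM is scaled to transcript length, so levels can be set side by side between genes. Because replicates were combined into 1 value, the spread between animals cannot be given and no test was run here. Sequencing depth is likewise unknown. Every difference given below is one that passed the authors' test, and its size has no error. A solute carrier without a row was not analysed here.

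Cell type markers were read from the same tables. Of 20 HSC genes 10 had a row for qHSCs. Dcn, a matrix proteoglycan, was the most abundant of these, with an FPKM of 109 without and 49.0 with the label, Pdgfrb had 0.905 and 0.370, and Lrat, Reln and Des had no row. The summed FPKM of the liver sinusoidal endothelial list was 4941 without and 13595 with the label, against 153 and 106 for the HSC list. Among genes with a row the endothelial markers thus had the higher sum in both fractions. However, 19 of 20 endothelial genes had a row, and a marker without a row may be abundant, so the sums do not rank the cell types. None of the listed markers with a row was at 0 in either qHSC fraction.

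The question of the qHSC comparison was how HSCs of embryonic mesothelial origin differ from the other HSCs of the same livers. Solute carriers differed in both directions. The nucleoside, nucleobase and iron transporters that were the most abundant of all were 2.45- to 3.11-fold higher in label-positive cells, and most rows of metal, mitochondrial and organic anion transporters were higher too. The glucose transporters Slc2a1 and Slc2a3, the lactate transporter Slc16a3 and the glutamine transporters Slc1a5 and Slc38a1 were 4.61- to 10.7-fold higher in label-negative cells. Of the 109 rows 67 (61.5%) were higher and 42 (38.5%) lower in label-positive qHSCs, against 50.4% higher and 49.6% lower among all 5716 rows. At least a 2-fold difference was found in 51 rows that were higher (46.8%, against 37.7% of all rows) and in 39 that were lower (35.8%, against 43.5%). The median log2 ratio of label-positive over label-negative FPKM was 0.93 for solute carriers and 0.64 for all rows above 0 in both groups. No such row lay between -0.552 and 0.548, so these medians depend largely on the share of higher rows and do not measure a larger shift. Among higher rows the median was 1.24, and 1.31 over all rows. Among lower rows it was -1.61, and -2.02 over all rows. Because the samples were bulk, fewer cells of a type and less RNA per cell cannot be told apart.

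**Figure D1:**
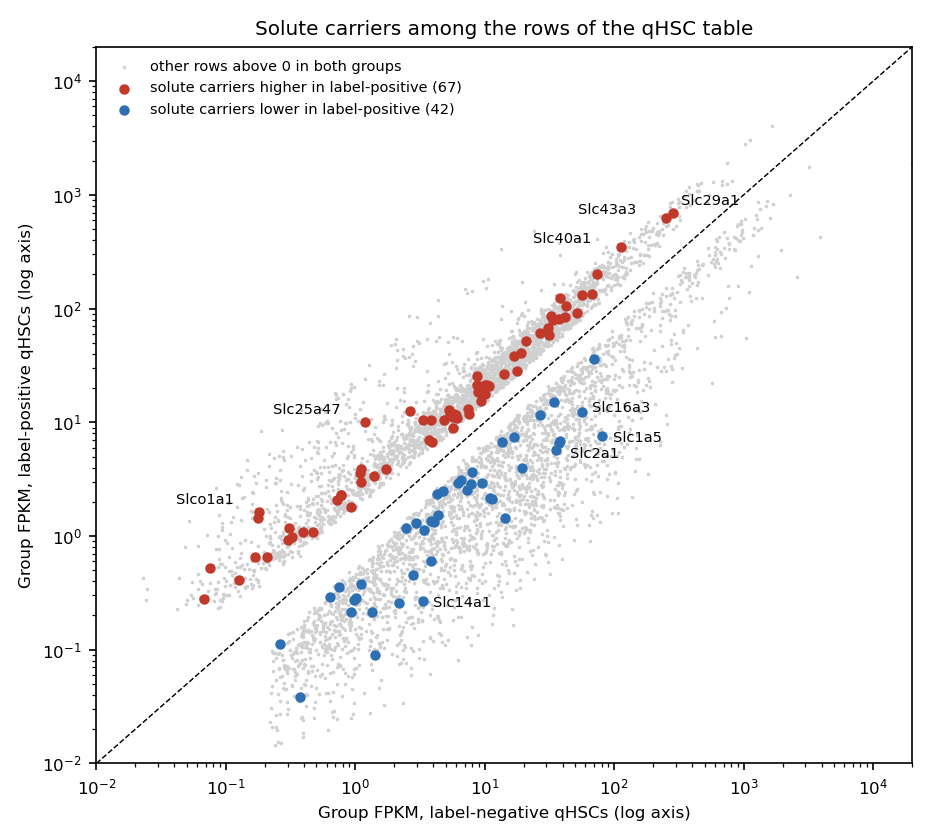
Group FPKM in label-negative (x axis) and label-positive (y axis) qHSCs, both on log axes, for all rows above 0 in both groups (grey) and for the 109 solute carriers, with the line of equal values dashed. The 67 red points lie above the line in a narrow band that includes the 3 most abundant genes, whereas the 42 blue points are more widely scattered below it.

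By level, a few genes made up a large part of the summed values. The FPKM of the 109 rows summed to 2037 without and 3712 with the label. Slc29a1, Slc43a3 and Slc40a1 made up 31.7% of the sum without and 44.9% with the label, and were the 3 most abundant in that order in both. Slc29a1, the equilibrative nucleoside transporter ENT1 that takes up adenosine, had an FPKM of 282.9 without and 692.5 with the label (log2 ratio 1.29). Slc43a3, a purine nucleobase transporter, had 251.5 and 623 (log2 ratio 1.31). The order further down differed between the fractions. Slc1a5 ranked 4 of 109 without and 49 with the label, and Slc39a8 ranked 13 and 7. Neighbouring ranks cannot be separated, since the values have no spread. An FPKM of at least 10 was reached by 39 rows without and 47 with the label, and 22 and 21 rows were below 1.

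Several glucose and lactate transporters were lower in label-positive qHSCs. Of 26 annotated sugar transporters 5 had a row, where the table holds 109 rows for 394 annotated solute carrier names, and 3 of the 5 were lower and 2 higher. Slc2a1 encodes GLUT1, the glucose transporter of most proliferating and glycolytic cells. Its FPKM was 37.98 without and 6.81 with the label, a log2 ratio of -2.48. Slc2a3, the high-affinity transporter GLUT3, had 37.6 and 6.61 (log2 ratio -2.51), nearly the same levels as Slc2a1 in both fractions. Slc2a6, a hexose transporter of lysosomes, had 19.6 and 3.99. The 2 sugar transporters that were higher were scarce: Slc2a13, a proton-coupled myo-inositol transporter, had 1.09 and 3.55, and Slc5a1, the sodium-glucose cotransporter SGLT1, had 0.393 and 1.09. Of 9 carboxylate transporters 5 were lower and 4 higher. Slc16a3, the lactate exporter MCT4 of glycolytic cells, had an FPKM of 56.2 without and 12.2 with the label (log2 ratio -2.20), and Slc16a6, a further member of the monocarboxylate family, had 35.5 and 5.67 (log2 ratio -2.65). The lymphocyte and granulocyte lists, whose values are given with the other markers after the classes, had lower sums in label-positive cells as the glucose transporters did.

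The start regions of Slc2a1 and Slc16a3 are shown because these genes, which act at the entry and the exit of glycolysis, were lower together. That of the cystine transporter gene Slc7a11 is shown because this gene was lower both in label-positive qHSCs and after WT1 deletion. Each runs 5′ to 3′ on the gene's strand from 250 bases before to 50 bases after the RefSeq start on GRCm38.p6. Capitals mark matches to ACGTG, the core of the hypoxia response element, in Slc2a1 (chr4:119108495-119108794, plus strand) and Slc16a3 (chr11:120948817-120949116, plus strand), and to TGATGNAA, an amino acid response element, in Slc7a11 (chr3:50443564-50443863, minus strand).
Slc2a1: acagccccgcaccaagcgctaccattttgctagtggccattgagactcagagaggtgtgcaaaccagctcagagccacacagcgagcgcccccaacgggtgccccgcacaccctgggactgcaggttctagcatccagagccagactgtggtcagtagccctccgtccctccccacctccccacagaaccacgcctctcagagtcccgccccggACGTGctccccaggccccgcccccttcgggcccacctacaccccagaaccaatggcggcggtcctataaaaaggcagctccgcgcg
Slc16a3: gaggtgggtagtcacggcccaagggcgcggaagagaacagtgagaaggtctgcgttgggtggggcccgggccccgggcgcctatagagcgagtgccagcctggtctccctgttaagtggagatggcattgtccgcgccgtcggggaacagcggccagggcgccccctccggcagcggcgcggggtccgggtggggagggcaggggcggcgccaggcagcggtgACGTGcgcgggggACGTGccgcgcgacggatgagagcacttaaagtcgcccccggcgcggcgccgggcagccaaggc
Slc7a11: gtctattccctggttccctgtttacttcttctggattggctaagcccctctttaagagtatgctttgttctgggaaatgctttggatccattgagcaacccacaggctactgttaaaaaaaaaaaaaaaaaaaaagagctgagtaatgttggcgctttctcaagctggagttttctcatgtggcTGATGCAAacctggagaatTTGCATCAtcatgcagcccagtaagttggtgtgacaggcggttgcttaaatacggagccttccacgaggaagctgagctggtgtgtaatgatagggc

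Slc2a1 held 1 match, Slc16a3 2 matches and Slc7a11 2 matches, with both strands searched, and no window held both motifs. ACGTG occurred in 30.6% of 85 start regions of members higher in label-positive cells, in 31.6% of 38 regions of members lower, and in 19.6% of all 32851 regions. TGATGNAA occurred in 5.88%, 2.63% and 3.97%. Start regions were matched by symbol for 57 of the 67 higher and 28 of the 42 lower genes. A match describes letters only, not a site in use.

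Amino acid and peptide transporters formed the largest class, with 20 of 68 annotated genes in the table, 12 higher and 8 lower in label-positive qHSCs. All 8 lower genes and 8 of the 12 higher genes differed at least 2-fold. Slc1a5 (ASCT2), which exchanges glutamine and other neutral amino acids, showed the largest difference among abundant solute carriers, with an FPKM of 80.8 without and 7.58 with the label (10.7-fold, log2 ratio -3.41). Slc38a1, a sodium-coupled glutamine transporter, had 14.2 and 1.45 (log2 ratio -3.29). Slc7a11 (xCT), which imports cystine for glutathione synthesis, had 4.35 and 1.54, and the arginine transporter Slc7a1 had 9.55 and 2.94. Several of the higher genes had high levels. This class, set by family number, includes Slc43a3. Slc7a7, the light chain of the system y+L exporter of basic amino acids, had 37.3 and 81.6, and Slc43a2 (LAT4), which carries branched-chain amino acids, had 56.3 and 131. Slc38a10 had 51.2 and 91.9. The hepatocyte amino acid transporter Slc38a4 was higher at a low level, with 1.11 and 3.86, and so was the glutamate transporter Slc1a2, with 0.308 and 1.18.

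Metal transporters were higher in label-positive qHSCs in 11 of 14 rows. Their summed FPKM was 282 without and 725 with the label. Slc40a1 encodes ferroportin, the exporter that releases iron from macrophages and hepatocytes, and its FPKM was 112 without and 349.9 with the label (log2 ratio 1.64). Slc39a8 (ZIP8), an importer of zinc and manganese, had 38.5 and 125 (log2 ratio 1.70). Slc31a2, a relative of the copper importer, had 33.5 and 79.0, and the zinc exporter Slc30a1 had 13.98 and 26.6. Of the 3 lower rows the largest fall on log2(FPKM + 1) was that of Slc39a14 (ZIP14), which imports zinc, iron and manganese and is induced in inflammation, with 7.88 and 2.88 (log2 ratio -1.45). The closely related importers ZIP8 and ZIP14 thus differed in opposite directions.

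Mitochondrial carriers, of the Slc25 family, were higher in 9 of 11 rows. Slc25a39, which brings glutathione into mitochondria, was the most abundant, with an FPKM of 32.3 without and 85.4 with the label, a 2.65-fold difference. The largest rise was that of Slc25a47, a carrier found mainly in liver, from 1.19 to 10.1 (log2 ratio 3.08). The urea cycle carriers Slc25a13, the aspartate-glutamate carrier citrin, and Slc25a15, which carries ornithine, had 3.32 and 10.4, and 2.66 and 12.6.

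Transporters of bile acids, organic anions and cations were higher in 8 of 11 rows. Slco2a1, which takes up prostaglandins for breakdown, was the most abundant, with an FPKM of 42.1 without and 106 with the label (log2 ratio 1.34). The 3 named uptake transporters of the hepatocyte's sinusoidal membrane were higher in label-positive cells at an FPKM below 4. The bile acid transporter Slc10a1 (NTCP) had 1.73 and 3.88, Slco1b2 had 0.721 and 2.06, and Slco1a1 had 0.181 and 1.62, the highest log2 ratio of any solute carrier in qHSCs at 3.16. The summed FPKM of a hepatocyte list was 257 and 1637, higher in the same fraction. Slco4a1, an organic anion transporter of many tissues, was lower, with 3.87 and 0.601 (log2 ratio -2.69). Among lipid and choline carriers the choline transporter Slc44a1 had 26.8 and 60.9, the hepatocyte fatty acid transport protein Slc27a2 had 0.769 and 2.31, and its relative Slc27a1, typical of muscle and fat, had 4.04 and 1.32.

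Ion transporters were higher in 7 of 10 rows. Slc26a10, of an anion exchanger family, had an FPKM of 67.4 and 135, the endosomal sodium-proton exchanger Slc9a9 had 41.7 and 84.4, and the potassium-chloride cotransporter Slc12a5 had 8.67 and 25.4. The sodium-bicarbonate cotransporter Slc4a7, which raises cell pH, was lower, with 11.4 and 2.14 (log2 ratio -2.42). Phosphate and vesicular transporters were higher in 5 of 7 rows, but the most abundant, the phosphate importer Slc20a1, was lower, with 69.5 and 35.7, and so was the vesicular nucleotide transporter Slc17a9, with 16.7 and 7.41. Nucleotide sugar and sugar phosphate transporters, which mostly supply the Golgi apparatus, were lower in 6 of 10 rows, and their summed FPKM was close in the fractions, 96.2 and 96.0. Slc35c2, the most abundant of them in label-negative cells, had 34.5 and 15.03. Slc28a2, a sodium-coupled nucleoside importer, had 11.1 and 2.14, the opposite direction to Slc29a1. The urea transporter Slc14a1 had 3.32 and 0.269. In 3 of the 109 rows the gene is no transporter, among them Slc9a3r2, the scaffold protein NHERF2, with 73.2 and 203.

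**Figure D2:**
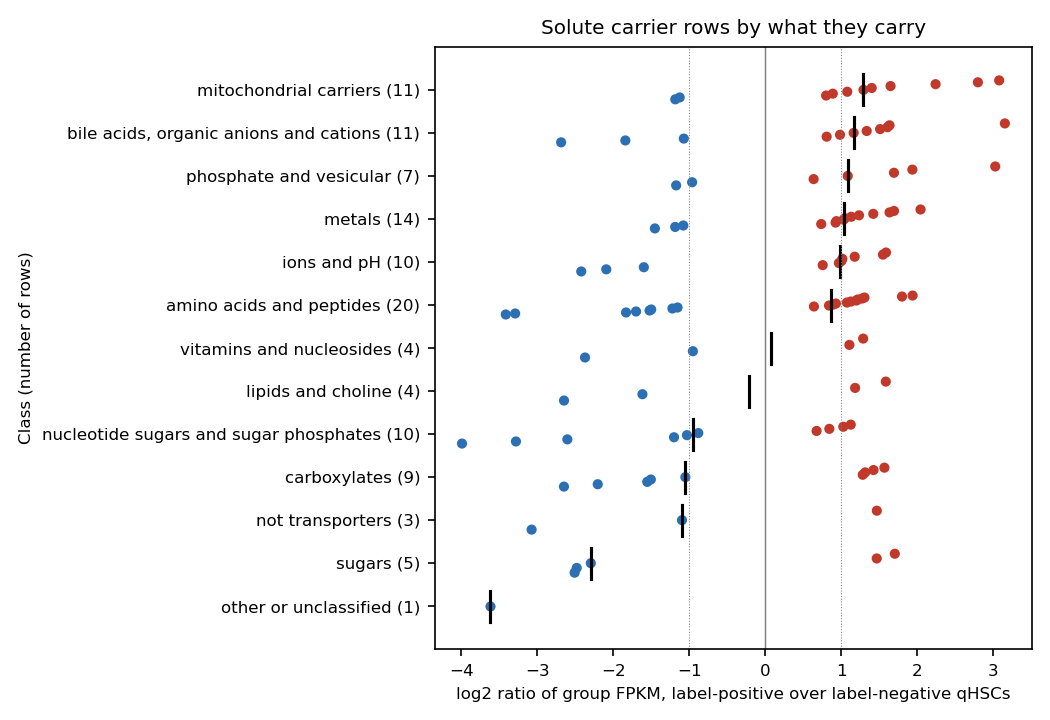
The log2 ratio of group FPKM, label-positive over label-negative qHSCs, for each of the 109 solute carrier rows (points), in classes by what the family carries (y axis, with the number of rows), with class medians as black bars and dotted lines at a 2-fold ratio. Medians were above 0 for mitochondrial, bile acid and organic ion, phosphate, metal, ion, amino acid, and vitamin and nucleoside carriers, and lowest, apart from the single urea transporter, for sugar transporters at -2.29.

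**Figure D3:**
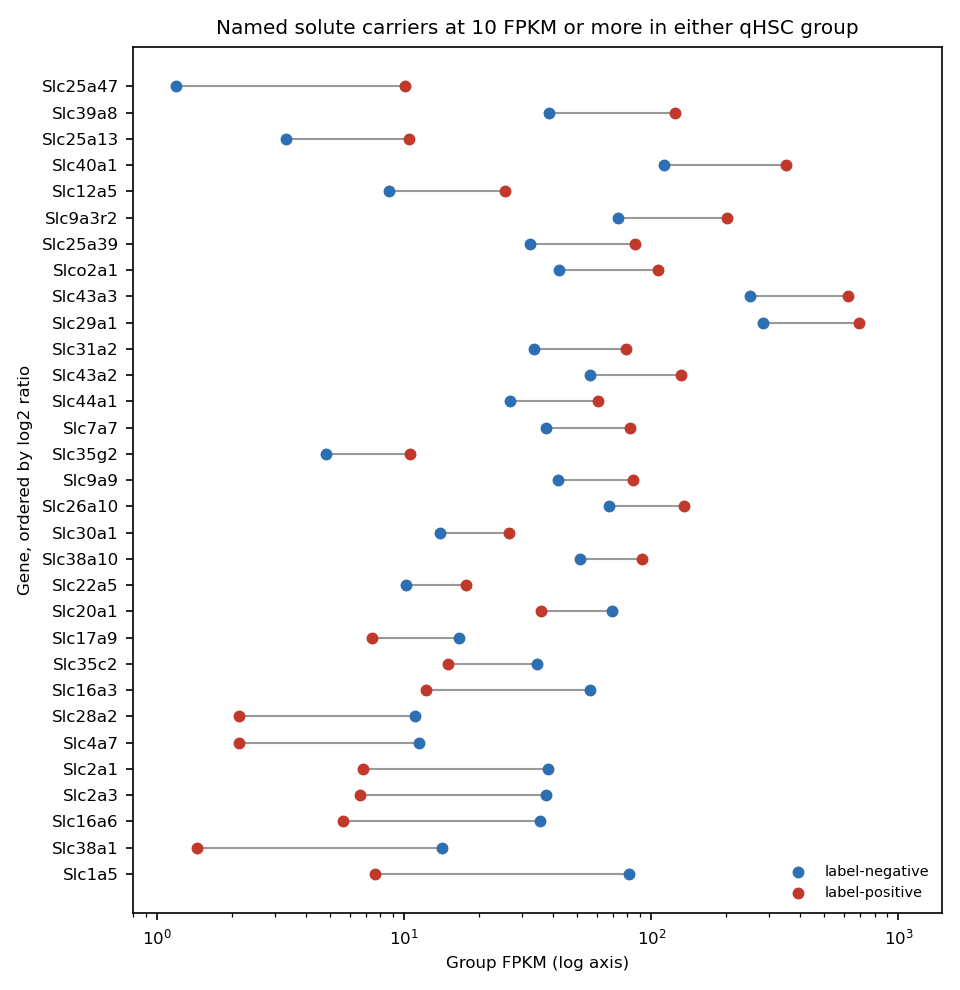
Group FPKM (x axis, log scale) in label-negative (blue) and label-positive (red) qHSCs for the 31 named solute carriers with an FPKM of at least 10 in either group, ordered by log2 ratio. Slc1a5 and Slc38a1 at the bottom show the widest falls among these genes, and Slc29a1 and Slc43a3 reach the highest levels in both fractions.

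Markers of several other cell types moved with these differences. All 20 genes of a T, NK and B lymphocyte list were lower in label-positive qHSCs, with a summed FPKM of 1878 without and 69.2 with the label, as were all 12 granulocyte genes with a row of 16 listed, with 2323 and 459. These moved in the direction of the glucose, lactate and glutamine transporters. In the other direction, 19 of 20 sinusoidal endothelial genes had a row and all 19 were higher, with a median log2 ratio of 1.55. Likewise 19 of 20 hepatocyte genes were higher, with a median log2 ratio of 2.57. All 6 pancreatic acinar genes with a row of 15 listed were higher, with a summed FPKM of 289 and 799, as were all 3 cholangiocyte genes with a row of 8 listed, with 27.7 and 74.1. The macrophage list was divided, 10 rows higher and 7 lower, and its summed FPKM was lower with the label, 2351 without and 1992 with it. Lyz2, the most abundant of this list in label-negative cells, weighed most in that sum, with 1283 and 289. Among the 10 higher rows, Clec4f had 34.2 and 166, and Cd5l had 20.3 and 86.0. Of the HSC list 3 were higher and 7 lower, with 153 and 106. The part of these cell types in the solute carrier differences was not tested.

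Other genes of membrane transport were read from a list of 60 genes. In qHSCs 27 had a row, 15 higher and 12 lower in label-positive cells. Emb (embigin), a chaperone of monocarboxylate transporters, had an FPKM of 87.6 without and 12.7 with the label, whereas Bsg (basigin), the chaperone of MCT4, had 105 and 164. Of the sodium-potassium pump, which drives sodium-coupled uptake, Atp1b1 had 30.4 and 9.43. The drug exporter Abcb1a had 9.43 and 1.04, and its relative Abcg2 had 12.4 and 32.3. Of the regulators, Myc, which induces glucose and glutamine transporter genes, had 78.7 and 19.7. Txnip, which draws glucose transporters from the cell surface, had 526 and 852, whereas Arrdc3, also listed as a regulator, had 44.9 and 19.1. Of the 10 regulators with a row 7 were higher and 3 lower. The bile acid receptor gene Nr1h4 had 0.578 and 4.08, and Hnf4a, a transcription factor of hepatocytes, had 1.10 and 13.002.

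WT1 deletion was compared with control in injured animals to find what WT1 does in aHSCs. In GFP-intermediate aHSCs 14 solute carriers had a row, and 13 (92.9%) were lower after WT1 deletion and 1 higher. Of all 419 named rows 62.8% were lower and 37.2% higher. The study reports fewer genes for this comparison, with numbers up and down closer to each other. These shares therefore describe the rows listed here, not the genes that the study counts. The median log2 ratio of WT1-deleted over control FPKM was -1.67 for solute carriers and -1.33 for all rows above 0 in both groups. The summed FPKM of the 14 rows was 366 in controls against 114 after deletion. All rows of this table differed at least 2-fold, so the size of a difference does not set these members apart.

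Amino acid and peptide transporters were 6 of the 14, all lower. They make up 68 of the 394 annotated names and 20 of the 109 qHSC rows. Since 13 of the 14 rows were lower, direction does not set this class apart. Slc7a8, the light chain LAT2 of a neutral amino acid exchanger, had an FPKM of 77.1 in controls against 28.3 after deletion (log2 ratio -1.44). Slc7a2 (CAT2), which brings arginine to nitric oxide synthase and arginase in activated macrophages and other cells, had 49.2 and 6.23, a 7.89-fold difference (log2 ratio -2.98). Slc7a11 had 14.4 and 4.24 (log2 ratio -1.76), and Slc6a12, a transporter of betaine and GABA, had 5.34 and 0.755 (log2 ratio -2.82). The oligopeptide transporter Slc15a2 had 2.79 and 0.149 (log2 ratio -4.23), the lowest log2 ratio among members above 0 in both groups, at a low level. Slc7a15 had 0.439 in controls and was listed at 0 in WT1-deleted cells.

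The other 8 rows fell into 8 classes, 1 in each. Ferroportin, Slc40a1, was the most abundant in control cells, with an FPKM of 85.2, and had 22.8 after deletion (log2 ratio -1.90). Slc37a2, a sugar phosphate exchanger, had 53.6 and 16.9 (log2 ratio -1.67), the fatty acid transport protein Slc27a1 had 31.3 and 14.7 (log2 ratio -1.09), and the aromatic amino acid transporter Slc16a10 had 25.8 and 10.8 (log2 ratio -1.26). The nucleoside importer Slc28a2 had 7.77 and 2.88, Slc9a9 had 7.51 and 2.76, and Slc22a4, which carries ergothioneine, had 5.17 and 1.33. The exception was Slc34a2, a sodium-phosphate cotransporter of epithelia, which was higher after deletion, with 0.650 and 2.60. No sugar transporter and no mitochondrial carrier had a row.

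**Figure D4:**
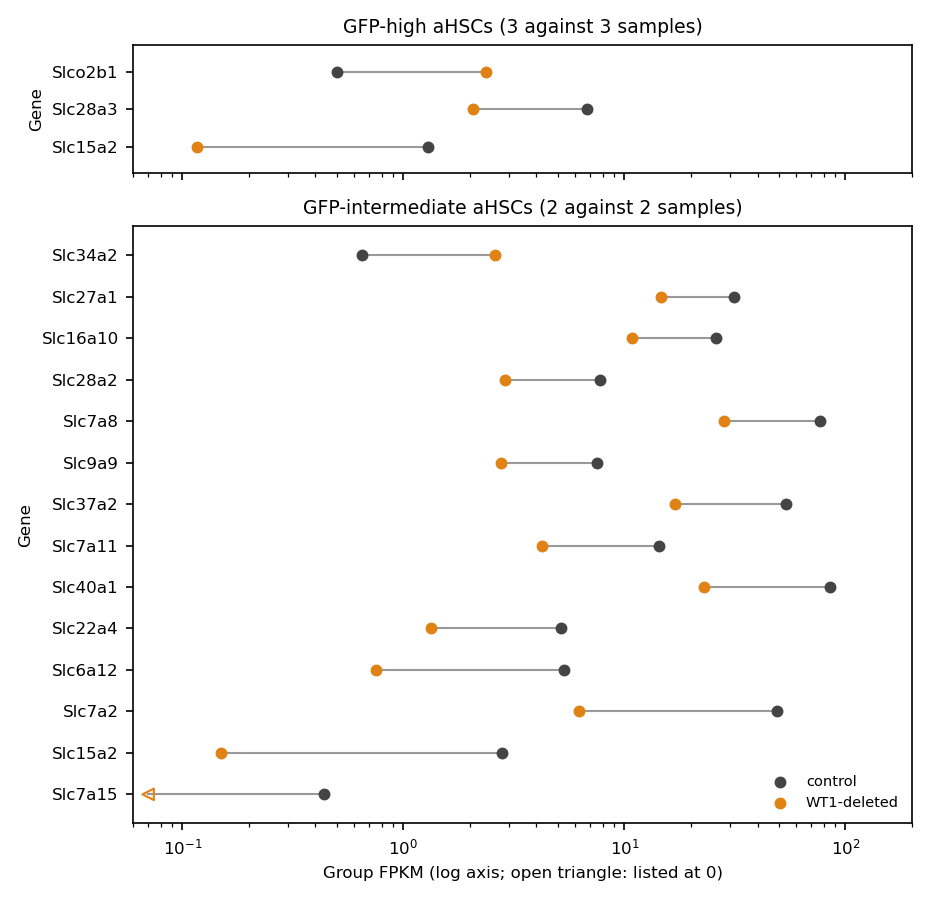
Group FPKM (x axis, log scale) in control (dark) and WT1-deleted (orange) aHSCs for every solute carrier with a row, in GFP-high cells (upper panel, 3 genes) and GFP-intermediate cells (lower panel, 14 genes). Slc34a2 and Slco2b1 are the rows in which the orange point lies to the right, and Slc7a15 was listed at 0 in WT1-deleted cells.

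Markers of other cell types differed in the same cells, and macrophage and granulocyte markers were lower. Of 21 macrophage genes 13 rows were found, all 13 lower, with a summed FPKM of 5551 in controls against 1395 after deletion and a median log2 ratio of -1.89. All 6 granulocyte genes with a row were lower, with 750 and 227, and so were the sinusoidal endothelial genes Stab1, with 120 and 30.8, and Cdh5. In 5 pancreatic acinar genes WT1-deleted cells were listed at 0. Of the HSC list 3 genes had a row: Cygb was higher after deletion, with 39.5 and 96.5, as was Colec11, with 2.92 and 10.7, and Hgf was lower, with 9.45 and 3.35. The cholangiocyte genes Epcam, with 1.30 and 5.70, and Sox9, with 1.67 and 4.69, were higher. Their part in the solute carrier differences was not tested. Of the 60 other transport genes 5 had a row, 4 of them lower. These included the exporters Abca1, of cholesterol, with 46.4 and 19.4, and Abcc3, of bile acid and drug conjugates, with 36.5 and 8.38. Fxyd1, a regulator of the sodium-potassium pump, was higher, with 11.1 and 37.96.

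In GFP-high aHSCs 3 solute carriers had a row, 1 higher and 2 lower after WT1 deletion, whereas 77.2% of all 123 named rows were higher and 22.8% lower. Slc28a3, a nucleoside importer, had an FPKM of 6.77 in controls against 2.07 after deletion (log2 ratio -1.71). Slc15a2 had 1.29 and 0.117 (log2 ratio -3.46). Slco2b1, an organic anion transporter, was higher, with 0.502 and 2.37 (log2 ratio 2.24). Of the granulocyte list 6 genes had a row and all 6 were lower, with a summed FPKM of 520 and 149, and no macrophage gene of the list had a row. None of the 60 other transport genes had a row. Slc15a2 was the 1 solute carrier found in both deletion tables, lower in each. The fractions were sorted in part from the same animals and normalised separately.

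Between the qHSC and the GFP-intermediate tables, which come from different animals, 9 solute carriers were shared, 8.26% of the 109 and 64.3% of the 14, against 3.92% and 53.2% of all named rows in the respective tables. All 9 were lower after WT1 deletion, where 13 of the 14 solute carriers, 62.8% of all named rows and 67.7% of all shared rows were lower. In qHSCs 61.2% of all shared rows were lower in label-positive cells, and of the 9 solute carriers 6 were lower and 3 higher. The 3 were Slc40a1, Slc7a8 and Slc9a9. Slc7a8 had a small difference in qHSCs, with an FPKM of 5.72 without and 8.93 with the label (log2 ratio 0.64). The 6 lower in both included Slc37a2, with 4.27 and 2.32 in qHSCs (log2 ratio -0.88), and Slc16a10, with 3.86 and 1.36 (log2 ratio -1.50). Levels in separate tables were normalised separately, so only directions were compared.

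**Figure D5:**
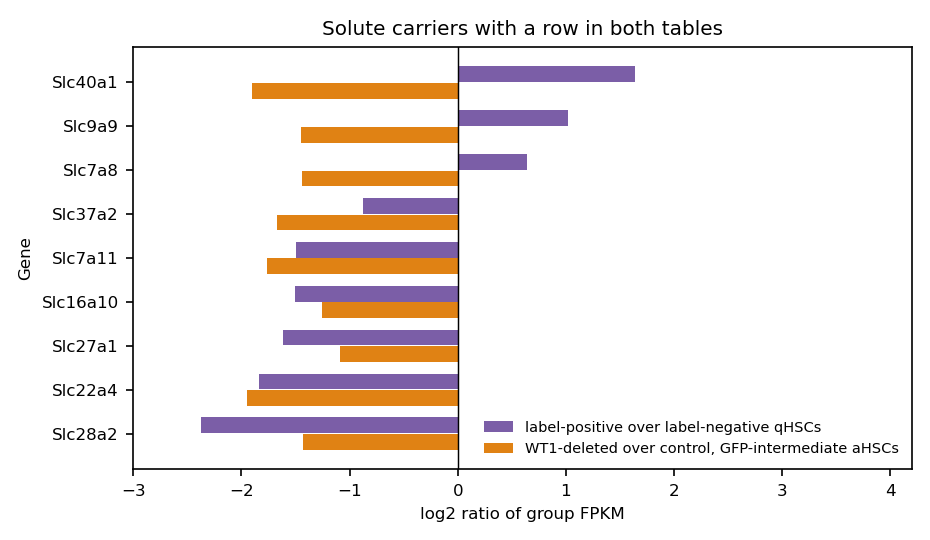
The log2 ratio of group FPKM (x axis) in qHSCs, label-positive over label-negative (purple), and in GFP-intermediate aHSCs, WT1-deleted over control (orange), for the 9 solute carriers with a row in both tables. All orange bars point to lower values, and purple bars point to higher values for Slc40a1, Slc9a9 and Slc7a8.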

How the data were processed

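The authors used Cuffdiff2 for their differential test (adjusted p-value limit 0.05), on alignments from bowtie 2. The submitters' processing notes list TopHat2 2.0.3, Cufflinks 2.0.1 and DESeq2, and both mm9 and mm10, without saying which table used which build. The values deposited by the authors are FPKM, 1 for each group and gene, with replicates combined. They cover only genes taken to be past the threshold, which was not established for the WT1 deletion comparisons. Further deposited tables repeat these values and add the authors' log2 fold changes, p-values and q-values, which were not used. The number of columns of values per sample left unused was 0.

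Rows named only by coordinates were left out, 108 for GFP-high and 149 for GFP-intermediate aHSCs. The log2 ratio of group FPKM was computed without a pseudocount, and medians use rows above 0 in both groups. Without values per sample, the tests planned for such values were not run and results are counts, levels and ratios. The counting was tested on simulated group values with set ratios and no noise, which checks the arithmetic only.

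Solute carriers were put into classes by family number. Members, classes and gene lists were chosen with earlier results of these data known. In qHSCs the named genes were the 15 most abundant, the most abundant and the largest rise and fall on log2(FPKM + 1) in each class with an FPKM of at least 1, those of a list of 40 well known solute carriers (22 with a row, 15 higher and 7 lower), and those also in a deletion table. In the deletion tables every member was named. A few genes that this rule names are not reported here. Slc2a6, Slc5a1, Slc7a1 and Slc25a15, the motifs and the start regions shown were chosen after their values were seen. Sequences are from RefSeq. Python 3.11.15, pandas 2.3.3, numpy 2.4.6 and matplotlib 3.10.9 were used.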

Additional observations from a re-analysis of the deposited data

How the results depend on the processing

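No paired analysis was possible because each group has 1 combined value, so that neither a replicate nor an animal could be left out or blocked, and no count test could be run. The numbers of higher and lower solute carriers stayed within 1.5 times under an FPKM of at least 1, at least a 2-fold ratio and leaving out genes that are no transporters. The last 2 settings could change the numbers only in qHSCs. In aHSCs every row differed at least 2-fold and every member was a transporter. Keeping rows that name 1 gene and counting each gene once removed nothing, so these settings tested nothing. Requiring 5 FPKM in either group, a limit chosen after seeing the data, 46 higher and 20 lower rows remained in qHSCs, and 0 higher and 11 lower in GFP-intermediate aHSCs, where Slc34a2 was the higher row lost. A pseudocount of 1 moved the median log2 ratio of solute carriers in qHSCs to 0.63, and in aHSCs to -1.03 (GFP-high) and -1.41 (GFP-intermediate). A pseudocount of 0.1 moved it to 0.92, -1.66 and -1.70. With a pseudocount the GFP-intermediate median also counts Slc7a15, listed at 0 after deletion, so its shift is not due to the pseudocount alone. Of 70 log2 ratios of single genes 21 moved by over 0.5 with a pseudocount of 1, which shrinks ratios of scarce genes such as Slco1a1 and Slc15a2. None changed sign, but none could, because the same constant was added to both groups. Directions were therefore not tested by the pseudocounts. The tables hold only genes taken to have passed the authors' threshold, which was not established for the WT1 deletion comparisons. Shares of higher and lower rows therefore hold among listed genes only.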

Other observations

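Among genes that the comparisons did not name, chosen here after their values were seen, Slc16a11 and Slc16a13, monocarboxylate family genes that lie next to each other on mouse chromosome 11 in the GRCm38.p6 gene order, were both higher in label-positive qHSCs. Slc16a11 had an FPKM of 0.778 without and 2.31 with the label, and Slc16a13 had 5.30 and 12.9. The lowest log2 ratio of any solute carrier in qHSCs, -3.99, was that of Slc35f2, at an FPKM of 1.43 and 0.0899. Slc18a2, the vesicular monoamine transporter, had the smallest difference among the higher rows, with 7.61 and 11.9. Slc46a1, which imports folate, had 5.38 and 11.6, while the riboflavin transporter Slc52a2 had 4.76 and 2.46.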
